A study of Mus musculus with 48 samples.

Results

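CD4+ and CD8+ tumor-infiltrating lymphocytes (TILs) of Yap-cKO mice were compared with each other, with 4 CD4 TIL libraries against 4 CD8 TIL libraries. These 8 libraries were taken by their labels from the 48 of the series. Yap-cKO mice (CD4Cre Yap flox in the labels) carried Yap-loxP/loxP alleles, an LSL-EYFP reporter and Cre driven by the Cd4 promoter, which in development acts in the precursors of CD4+ and CD8+ T cells alike, so that all 8 libraries came from cells with the Yap deletion. The mice were young adults on the C57BL/6J background, and all bore subcutaneous tumors of B16F10, a mouse melanoma cell line that is itself not deleted for Yap. T cells were sorted from each tumor on CD45, CD3, CD4 and CD8 and as viable cells, and their RNA was amplified by a full-length method for low input. For reference, the same comparison was made in 4 CD4 and 4 CD8 TIL libraries of WT mice, and in 4 CD4 and 4 CD8 libraries of tumor-draining inguinal lymph nodes (TDLNs) of Yap-cKO mice. Littermates served as controls in the study.

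CD4+ T cells recognize antigen on MHC class II and act largely through secreted cytokines and CD40 ligand, whereas CD8+ T cells recognize antigen on MHC class I and kill their targets with perforin and granzymes. Within tumors the CD4+ population often includes regulatory T cells (Tregs), which depend on the transcription factor FOXP3 and restrain other T cells. T helper 2 (Th2) cells produce interleukins 4, 5 and 13 under control of GATA3. Yap is a transcriptional coactivator that is held in check by the Hippo kinases and binds DNA through TEAD factors.

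Gene counts of the 8 libraries summed to between 14566898 and 17724824, so that 3 counts corresponded to 0.169 to 0.206 CPM, the unit that scales counts to a common library total. Levels below are CPM adjusted by TMM factors, and differences are log2 fold changes of CD4 over CD8 from edgeR's quasi-likelihood test. A gene was called when its Benjamini-Hochberg adjusted p was under 0.05 and its log2 fold change lay beyond 1 in either direction. Yap1 was at 3.50 ± 1.73 CPM in CD4 TILs and 4.91 ± 1.83 CPM in CD8 TILs (SD, n = 4 each) of Yap-cKO mice, against 23.6 ± 5.80 and 23.9 ± 7.06 CPM in WT CD4 and CD8 TILs, which were scaled separately.

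CD4 replicate 3 stood apart from the other 7 libraries. Relative to the other libraries of its group, its 3476 longest genes were lower than its 3476 shortest genes by a median log2 difference of -1.22, whereas this difference lay between -0.40 and 0.88 in the other 7. Ptprc, a long gene that encodes CD45, was at 97.5 CPM in CD4 replicate 3 and at 1130 to 1467 CPM in the other CD4 TIL libraries. Its summed macrophage markers (1104 CPM) also exceeded those of the other CD4 TILs (202 to 265 CPM). List counts are given also without this library where they differed by more than 1.

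Of 13902 genes tested, 346 were called (2.49%), of which 189 were higher in CD4 TILs (1.36%) and 157 in CD8 TILs (1.13%). The groups did not overlap at any of these genes, against 8.4% of all genes tested. At an unadjusted p under 0.05 there were 1435 of the 13902 genes, and DESeq2 called 734, with 417 higher in CD4 and 317 in CD8. Without CD4 replicate 3 the calls numbered 456, with 231 higher in CD4 and 225 in CD8. When the libraries were scaled on 16 T-lineage genes instead of TMM, the median log2 fold change of all genes went from -0.04 to -0.23 and the split turned to 120 higher in CD4 and 168 in CD8. Libraries with the same replicate number deviated together (correlation of their deviations from the group means 0.157 to 0.576), and with the number as a block 612 genes were called (4.4%), 328 higher in CD4 (2.36%) and 284 in CD8 (2.04%), including 340 of the 346. Leaving out a library other than CD4 replicate 3 lowered the count, to 142 without CD4 replicate 2, 156 without CD4 replicate 4, 162 without CD4 replicate 1, 181 without CD8 replicate 4, 189 without CD8 replicate 3, 197 without CD8 replicate 2 and 240 without CD8 replicate 1.

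**Figure D1:**
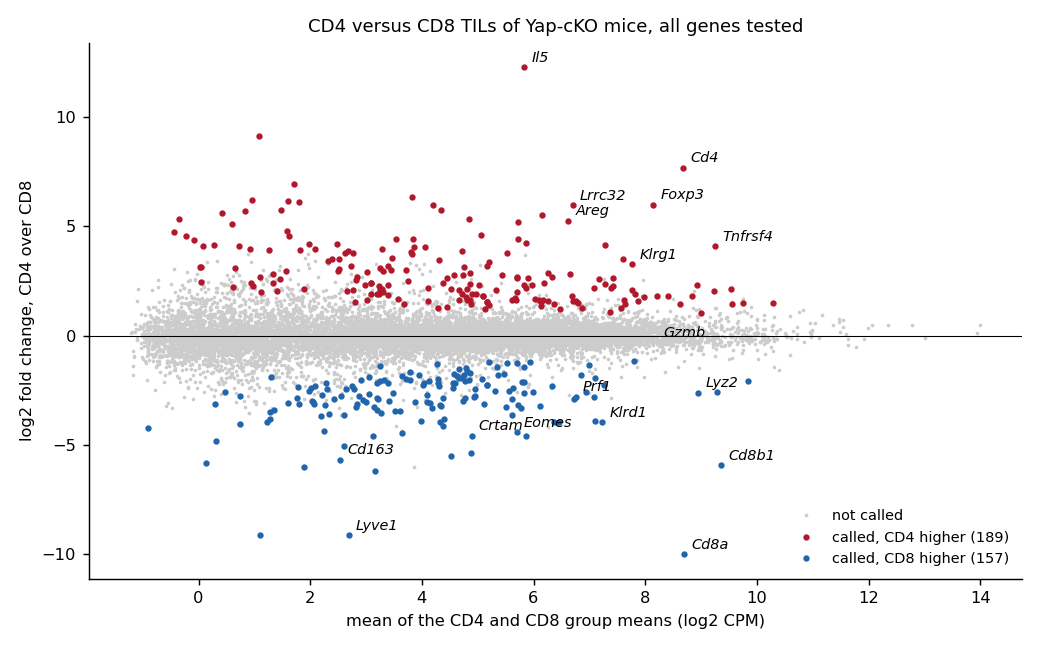
Each point is 1 of the 13902 genes tested, with its mean TMM-scaled CPM over the 8 libraries on the horizontal axis (log2) and its log2 fold change of CD4 over CD8 TILs on the vertical axis. Colored points are the 189 genes called higher in CD4 (red) and the 157 called higher in CD8 (blue), and the extremes at the top and bottom are Il5 (12.26) and Cd8a (-10.00).

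The coreceptors used in the sort separated the 2 groups of libraries. Cd4 (chr6:124864692-124888221, GRCm38) was at 997, 855, 610 and 796 CPM in CD4 replicates 1 to 4 and at 6.40, 3.28, 3.23 and 3.09 CPM in CD8 replicates 1 to 4. Cd8a (chr6:71373427-71379173) was at 0.719, 1.12, 0.511 and 0.849 CPM in CD4 TILs and at 753, 1084, 710 and 768 CPM in CD8 TILs. Both genes matched the label of every library. Cd8b1, which encodes the other chain of CD8, was at 15.6 to 26.2 CPM in CD4 TILs and 1204 to 1395 CPM in CD8 TILs. As the sort chose these genes, their differences (log2 7.67, -10.00 and -5.92) check the labels and are no result.

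Genes of regulatory T cells were higher in CD4 TILs. Of 31 Treg genes tested, 17 were higher in CD4 TILs and none in CD8 TILs, with a median log2 fold change of 2.33 against -0.04 over all genes tested, and 30 of the 31 had a positive fold change. Foxp3 (chrX:7573644-7595245), the factor that defines Tregs, was at 670, 588, 420 and 541 CPM in CD4 TILs and at 17.02, 15.3, 0.445 and 2.76 CPM in CD8 TILs. All 4 CD4 TIL libraries were thus far above the highest CD8 TIL library, while the CD8 TILs differed among themselves from 0.445 to 17.02 CPM. The log2 fold change was 5.97 ± 0.94 (SE, edgeR adjusted p = 0.0095), and Foxp3 was called in 8 of 8 tests that each left out 1 library.

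Surface proteins of Tregs were also higher in CD4 TILs. Lrrc32, which encodes GARP, the anchor of latent TGF-beta on Tregs, was at 349, 183, 192 and 95.2 CPM in CD4 TILs and at 4.66, 5.24, 0.834 and 2.42 CPM in CD8 TILs (log2 5.96 ± 0.65, edgeR adjusted p = 0.0023). Il2ra, the high-affinity chain of the interleukin 2 receptor, was at 667, 227, 45.5 and 234 CPM in CD4 TILs and at 11.6 to 23.9 CPM in CD8 TILs (log2 4.11 ± 0.70, edgeR adjusted p = 0.013). CD4 replicate 3 was the lowest CD4 TIL library at Il2ra and still lay above every CD8 TIL library, and the call was lost without CD8 replicate 4 (edgeR adjusted p = 0.0521). Il1rl1, the interleukin 33 receptor carried by tissue Tregs and Th2 cells, was at 372, 98.1, 14.4 and 74.8 CPM against 1.83 to 4.08 CPM (log2 5.49 ± 0.89, edgeR adjusted p = 0.010). Areg, which encodes the tissue repair factor amphiregulin, ranked the CD4 TILs in the same order, at 491, 149, 52.4 and 75.5 CPM against 3.03 to 7.70 CPM (log2 5.24 ± 0.75, edgeR adjusted p = 0.0062). CD4 replicate 1 was thus the highest library for Foxp3, Lrrc32, Il2ra, Il1rl1 and Areg. Ebi3, a subunit of the cytokine interleukin 35, was at 51.5 to 84.7 CPM against 1.36 to 3.23 CPM (log2 4.59 ± 0.37, edgeR adjusted p = 0.00028).

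Some Treg genes did not pass. Ctla4, the inhibitory receptor that competes for CD28 ligands, was at 1189, 857, 256 and 715 CPM in CD4 TILs and at 332, 180, 127 and 95.9 CPM in CD8 TILs (log2 2.04 ± 0.51, edgeR adjusted p = 0.077), and CD4 replicate 3 lay below CD8 replicate 1. With the replicate block its edgeR adjusted p was 0.012. Icos had a log2 fold change of 1.22 ± 0.60 (edgeR adjusted p = 0.57), with overlapping groups. Tnfrsf9, which encodes 4-1BB, was at 1038 to 1545 CPM in CD4 TILs and at 133, 1075, 187 and 265 CPM in CD8 TILs, so that CD8 replicate 2 reached the CD4 range (log2 1.66 ± 0.60, edgeR adjusted p = 0.27). With the block 19 Treg genes were called higher in CD4, and 19 were called without CD4 replicate 3.

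**Figure D2:**
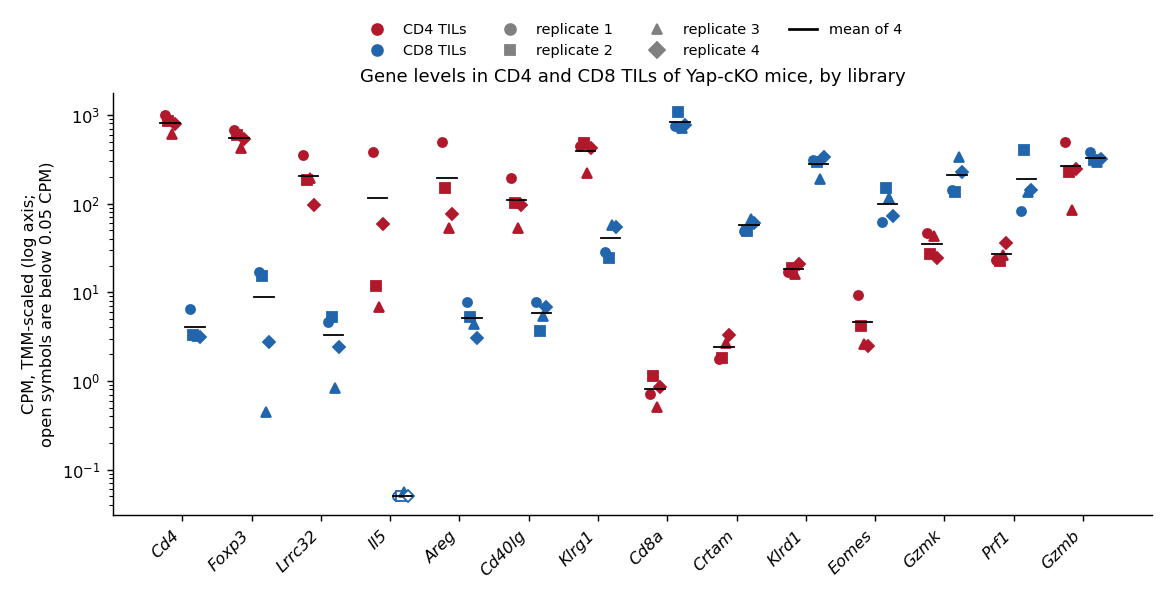
TMM-scaled CPM of genes named in the text in each of the 4 CD4 TIL and 4 CD8 TIL libraries of Yap-cKO mice, on a log axis, with 1 point per library and a bar at the mean (values and means below 0.05 CPM, at Il5 in CD8 TILs, are drawn at 0.05). Foxp3 lay at 420 to 670 CPM in CD4 TILs and at 0.445 to 17.02 CPM in CD8 TILs, whereas the groups overlapped at Gzmb.

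Th2 genes were the list with the highest median. Of 14 tested, 12 were higher in CD4 TILs and none in CD8 TILs (median log2 3.63), and 9 were called without CD4 replicate 3, when some were too low to test. Il4 (chr11:53602982-53618669), Il13 (chr11:53631324-53634702) and Il5 (chr11:53720794-53725106) lie near each other in the genome. Because each was called higher in CD4 TILs, their promoters are shown, as the 250 bases before the RefSeq start, 5′ to 3′ on the gene's strand (GRCm38.p6). Capitals mark the motifs GATAA (bound by GATA factors), TGTGGT (RUNX factors) and TGAGTCA (AP-1), searched on both strands.
Il4 (chr11:53618666-53618915, minus strand): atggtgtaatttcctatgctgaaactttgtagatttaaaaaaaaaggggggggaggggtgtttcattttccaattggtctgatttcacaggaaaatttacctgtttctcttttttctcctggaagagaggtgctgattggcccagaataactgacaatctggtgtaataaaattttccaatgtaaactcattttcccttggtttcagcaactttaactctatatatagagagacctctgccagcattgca
Il13 (chr11:53634703-53634952, minus strand): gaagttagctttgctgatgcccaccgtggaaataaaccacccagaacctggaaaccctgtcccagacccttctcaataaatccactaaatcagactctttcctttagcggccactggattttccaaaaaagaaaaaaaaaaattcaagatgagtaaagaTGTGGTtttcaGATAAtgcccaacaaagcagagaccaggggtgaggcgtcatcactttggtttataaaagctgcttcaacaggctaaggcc
Il5 (chr11:53720544-53720793, plus strand): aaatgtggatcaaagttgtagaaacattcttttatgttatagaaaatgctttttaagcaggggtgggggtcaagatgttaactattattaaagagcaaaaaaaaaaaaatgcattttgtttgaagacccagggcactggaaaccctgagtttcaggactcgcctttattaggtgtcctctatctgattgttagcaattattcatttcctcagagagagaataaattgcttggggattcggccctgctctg

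Within these windows Il13 held 1 GATA and 1 RUNX match, and Il4 and Il5 held none of the 3 motifs. Over all 32851 promoters of the same length, 22.6% held the GATA motif, 14% the RUNX motif and 4.46% the AP-1 motif.

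Il5 was at 380, 11.7, 6.77 and 59.0 CPM in CD4 TILs, with 7086 counts in all, and a single count was found in the 4 CD8 TIL libraries together. CD4 replicate 1 held most of these counts. The ratio of the pooled counts, each divided by the pooled TMM-adjusted library sizes of its group, was 7059. Its 95% counting interval ran from 1266 to 278840 (edgeR adjusted p = 0.0075). Il4 was at 6.93, 2.01, 6.26 and 8.85 CPM in CD4 TILs (384 counts in all), and 5 counts were found in CD8 TILs (log2 6.13 ± 0.67, edgeR adjusted p = 0.0023). Il13 was at 18.8, 0.649, 4.28 and 3.82 CPM in CD4 TILs (429 counts), against 6 counts in CD8 TILs (log2 6.11 ± 1.06, edgeR adjusted p = 0.014). All 3 cytokines were thus present in every CD4 TIL library and at or under 3 counts in each CD8 TIL library, and CD4 replicate 2 was the lowest for Il4 and Il13. The minimum of 10 counts in 4 libraries left these genes untested whenever a CD4 TIL library was left out. Leaving out a CD8 TIL library, the call was lost for Il5 without replicate 3 (edgeR adjusted p = 0.0545) and for Il13 without replicate 2 or 4 (0.0550 and 0.0607). Il9 was found in CD4 replicate 1 alone, at 20.9 CPM, and was not tested.

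Regulators of Th2 cells were higher in CD4 TILs as well. Pparg, a nuclear receptor used by Th2 cells and tissue Tregs, was at 79.6, 42.2, 10.3 and 65.8 CPM in CD4 TILs and at 1.61 to 4.90 CPM in CD8 TILs (log2 3.87 ± 0.62, edgeR adjusted p = 0.0096). Gata3, the lineage factor of Th2 cells that Tregs also use, was at 424, 312, 132 and 233 CPM against 48.6 to 86.3 CPM (log2 2.18 ± 0.38, edgeR adjusted p = 0.014), and this call was lost without CD4 replicate 2 or CD8 replicate 2, 3 or 4 (edgeR adjusted p from 0.0511 to 0.0607). Maf was at 114, 111, 44.8 and 108 CPM against 14.2 to 23.4 CPM (log2 2.30 ± 0.35, edgeR adjusted p = 0.0078). The 2 Th2 genes that were not called, Il4ra (log2 -0.30) and Stat6 (0.04), encode the receptor and signal transducer through which interleukin 4 acts. Of the 14 Th2 genes, Areg, Il1rl1, Ccr8 and Il10 are also on the Treg list, and bulk RNA cannot tell whether the same cells carried both sets. Neither can it tell apart fewer cells of a type from less RNA per cell, here and for every gene that follows.

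Of 12 Th17 genes tested, 4 were higher in CD4 TILs (median log2 1.38). Ccr6, a receptor of Th17 cells and Tregs, was at 34.9 to 78.3 CPM in CD4 TILs and 4.17 to 9.68 CPM in CD8 TILs (log2 2.84 ± 0.40, edgeR adjusted p = 0.0052). Il17f and Batf also passed, at log2 4.16 and 1.09, but each lost its call without several single libraries (highest edgeR adjusted p 0.109 and 0.142), and under the T-lineage scaling 1 of the list was called. Among 15 type 1 genes tested, Eomes alone was called, higher in CD8 TILs, and without CD4 replicate 3 the calls were 2 in CD8 and 1 in CD4. Tbx21, the factor of type 1 responses, and Ifng, its main cytokine, had log2 fold changes of 0.02 and -1.14 and did not pass.

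Of 18 lineage and helper genes tested, 4 were higher in CD4 TILs and 1 in CD8 TILs. Cd40lg, the helper molecule by which CD4+ T cells license B cells and dendritic cells, was at 194, 101, 52.8 and 95.5 CPM in CD4 TILs and at 3.66 to 7.76 CPM in CD8 TILs (log2 4.23 ± 0.46, edgeR adjusted p = 0.0023). Zbtb7b, which encodes ThPOK, the factor that commits thymocytes to the CD4 lineage, was at 28.6, 43.8, 97.3 and 25.1 CPM against 3.56 to 7.20 CPM (log2 3.13 ± 0.49, edgeR adjusted p = 0.0092). Runx3, which plays the opposite part in the CD8 lineage, was not called (log2 -0.43). Crtam, a receptor of activated cytotoxic cells, was at 1.76, 1.83, 2.68 and 3.27 CPM in CD4 TILs and at 49.6, 49.6, 67.4 and 61.0 CPM in CD8 TILs (log2 -4.57 ± 0.33, edgeR adjusted p = 0.00011). The libraries of each group lay close together at Crtam, and it was called in 8 of 8 tests that left out a library. Tcf7, a factor of naive and stem-like T cells, was not called (log2 -0.59).

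Costimulatory genes of the TNF superfamily were called in one direction, and none of the CD28 family was called. Of 27 tested, 6 were higher in CD4 TILs and none in CD8 TILs (median log2 0.94), against 1.36% and 1.13% of all genes tested. Tnfrsf4, Tnfrsf18 and Tnfrsf8 are also on the Treg list and Cd40lg on the lineage list, which leaves Tnfrsf25 and Traf1. Tnfrsf4, which encodes OX40, was at 943, 891, 1607 and 1179 CPM in CD4 TILs and at 17.6, 109, 77.5 and 70.9 CPM in CD8 TILs (log2 4.07 ± 0.52, edgeR adjusted p = 0.0038). Tnfrsf18, which encodes GITR, was at 1031 to 1618 CPM against 227 to 334 CPM (log2 2.14 ± 0.27, edgeR adjusted p = 0.0035). Both are known from tumor Tregs, and no CD8 TIL library came near the CD4 range. Tnfrsf8 (CD30) and Tnfrsf25 (DR3) had log2 fold changes of 4.06 and 2.67 (edgeR adjusted p = 0.0023 and 0.0047). Traf1, an adaptor of these receptors, stood at the threshold (log2 1.00, edgeR adjusted p = 0.045) and was not called with the block or without any single library. By DESeq2 as well none of the Treg, Th2, Th17 and common gamma chain genes was called higher in CD8 TILs, and 1 of the costimulatory genes was.

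Some cytokine receptor and JAK-STAT genes were called in CD4 TILs. Among 22 genes of the common gamma chain receptors and the JAK-STAT pathway, Il2ra, Socs2, Cish and Il9r were higher in CD4 TILs and none in CD8 TILs. The other 18 were not called (list median log2 0.32), and Il2ra and Socs2 are also on the Treg list. Cish and Socs2, both feedback inhibitors induced by STAT5, were at 187 to 438 and 19.6 to 119 CPM in CD4 TILs against 46.3 to 72.9 and 4.78 to 10.4 CPM in CD8 TILs (log2 2.24 and 3.35, edgeR adjusted p = 0.0073 and 0.0090). Il9r, the interleukin 9 receptor, lost its call without any of 6 single libraries (highest edgeR adjusted p 0.0798). Of the 26 CD3 and proximal TCR signaling genes, Cd5, a brake on TCR signaling, was the only one called (log2 1.80, edgeR adjusted p = 0.017). Over all genes tested 2.49% were called, and the median log2 fold change of this list was 0.03. Without CD4 replicate 3 this list had 2 calls in CD4 and 1 in CD8. Cd5 lost the call without CD8 replicate 2, 3 or 4 (edgeR adjusted p from 0.0564 to 0.0708).

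Chemokine receptors divided the populations. Of 19 tested, Ccr4, Ccr8, Ccr3 and Ccr6 were higher in CD4 TILs, and Cxcr5 in CD8 TILs. Ccr8, a receptor prominent on tumor Tregs, was at 293, 479, 266 and 389 CPM in CD4 TILs and at 6.08, 86.4, 13.7 and 20.6 CPM in CD8 TILs (log2 3.49 ± 0.73, edgeR adjusted p = 0.034). CD8 replicate 2 was the highest of its group here, as at Tnfrsf9. The calls of Ccr8 and Cxcr5 were lost when most single libraries were left out (highest edgeR adjusted p 0.125 and 0.169), and that of Ccr4 (log2 3.78) without CD4 replicate 1 or CD8 replicate 3 or 4 (0.0506 to 0.0798). Cxcr3 and Cxcr6, receptors of tumor-homing effector cells, were not called (log2 0.82 and -0.51).

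**Figure D3:**
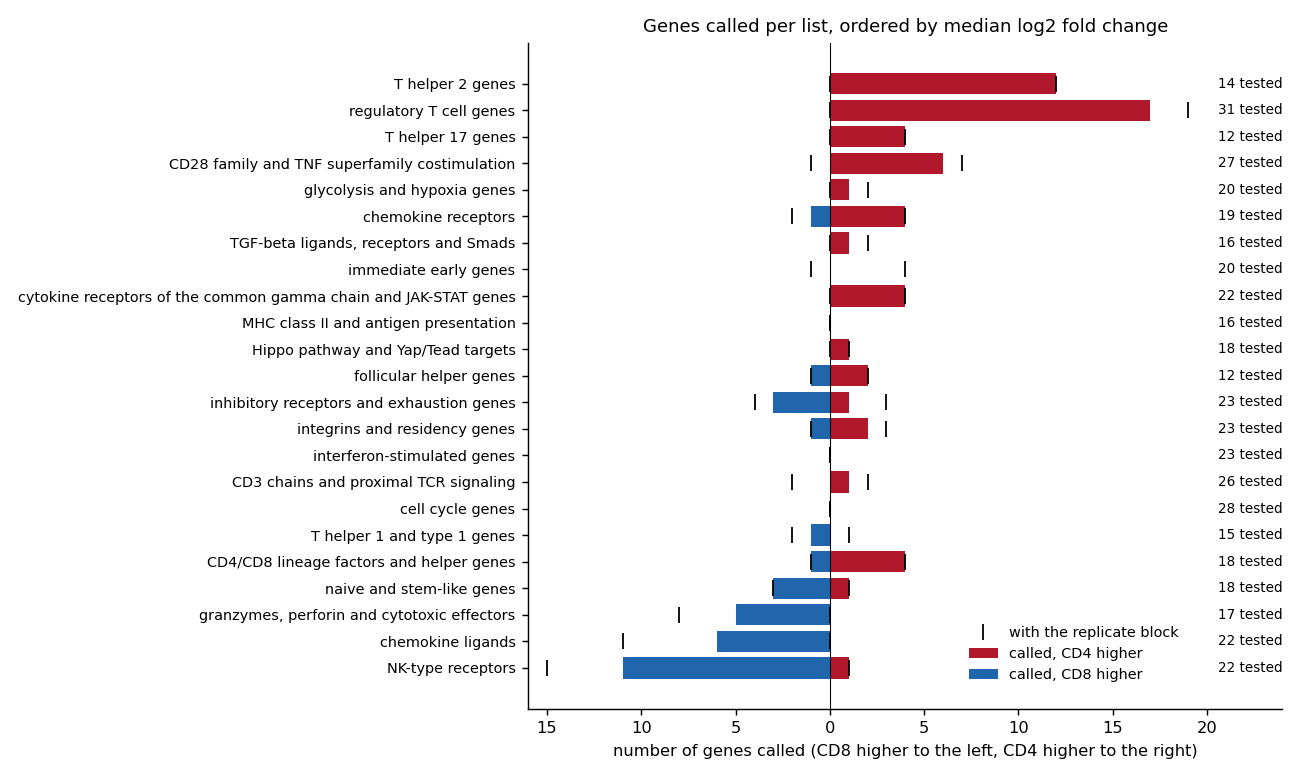
Number of genes called in each list, with those higher in CD4 TILs to the right and those higher in CD8 TILs to the left, the lists ordered by their median log2 fold change, and ticks for the counts with the replicate block. T helper 2 genes stood at the top (12 of 14) and NK-type receptors at the bottom (11 of 22 higher in CD8, 1 in CD4).

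The CD8 TILs were marked by receptors first described on natural killer (NK) cells. Of 22 tested, 11 were higher in CD8 TILs and 1 in CD4 TILs (median log2 -2.27), against 1.13% and 1.36% of all genes tested. The list also holds the Fc receptor and adaptor genes Fcgr3, Fcer1g and Tyrobp. Macrophage markers, given below, were higher in CD8 TILs too. Klrd1, which encodes CD94, was at 17.1, 18.9, 16.2 and 21.04 CPM in CD4 TILs and at 307, 298, 191 and 335 CPM in CD8 TILs (log2 -3.95 ± 0.29, edgeR adjusted p = 0.00011). Its partner Klrc1, which encodes the inhibitory chain NKG2A, was at 20.5, 10.5, 1.15 and 10.9 CPM in CD4 TILs against 207, 133, 78.0 and 240 CPM in CD8 TILs (log2 -3.93 ± 0.72, edgeR adjusted p = 0.018). This call was lost without CD4 replicate 2 or 4 or CD8 replicate 4 (edgeR adjusted p from 0.0570 to 0.0729). Klre1 (log2 -4.11), Klrk1, the gene of NKG2D (-2.79, called in 2 of 8 tests that left out a library), and the Ly49 genes Klra7 (-5.52) and Klra6 (-4.58) lay on the same side. The Ly49 genes are near-identical copies whose reads the quantification may have split, so their separate values are uncertain.

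Klrg1, a lectin-like receptor of terminally differentiated effector cells and of tissue Tregs, was the exception. It was at 440, 480, 224 and 428 CPM in CD4 TILs and at 28.6, 24.2, 57.2 and 54.8 CPM in CD8 TILs, with no overlap (log2 3.25 ± 0.40, edgeR adjusted p = 0.0032). It was called in 8 of 8 tests that left out a library.

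Of 17 cytotoxic effector genes tested, 5 were higher in CD8 TILs and none in CD4 TILs (median log2 -1.07), and 8 with the replicate block and 7 without CD4 replicate 3. Gzmk, the granzyme of memory-like CD8+ T cells, was at 46.5, 27.1, 42.8 and 24.3 CPM in CD4 TILs and at 141, 136, 337 and 225 CPM in CD8 TILs (log2 -2.58 ± 0.38, edgeR adjusted p = 0.0073). Prf1, the pore-forming protein, was at 23.1, 22.6, 26.4 and 36.0 CPM against 82.5, 398, 134 and 141 CPM (log2 -2.80 ± 0.48, edgeR adjusted p = 0.014). Gzma was at 5.43, 17.2, 7.67 and 9.46 CPM against 111, 60.3, 63.6 and 383 CPM (log2 -3.95 ± 0.68, edgeR adjusted p = 0.014). CD8 replicate 4 held the most Gzma and CD8 replicate 2 the most Prf1, so that the 2 genes did not rank the CD8 TILs alike. Without CD4 replicate 1 the calls of both were lost (edgeR adjusted p = 0.0516 for Gzma and 0.0537 for Prf1), as was that of Gzma without CD4 replicate 4 (0.0644) and that of Prf1 without CD4 replicate 2 (0.0596). Gzmm (log2 -3.45) and Slamf7 (-2.39) completed the 5.

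Gzmb, the granzyme that triggers caspases in target cells, was at 490, 229, 85.5 and 248 CPM in CD4 TILs and at 377, 313, 291 and 322 CPM in CD8 TILs. The CD8 TILs lay inside the CD4 range, and CD4 replicate 1 was the highest of all 8 libraries. Its log2 fold change was -0.31 ± 0.43 (edgeR adjusted p = 0.94, and 0.48 with the block), and 0.01 without CD4 replicate 3. Gzmd, Gzme, Gzmf, Gzmg and Gzmn were too low to test. The promoters of Gzmb, Gzmk and Prf1 are shown as above because Gzmb was not called and the others were.
Gzmb (chr14:56262335-56262584, minus strand): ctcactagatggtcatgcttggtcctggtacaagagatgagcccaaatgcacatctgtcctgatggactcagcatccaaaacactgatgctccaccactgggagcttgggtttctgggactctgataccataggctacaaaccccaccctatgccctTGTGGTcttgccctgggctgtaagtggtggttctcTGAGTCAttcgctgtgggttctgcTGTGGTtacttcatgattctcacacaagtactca
Gzmk (chr13:113180966-113181215, minus strand): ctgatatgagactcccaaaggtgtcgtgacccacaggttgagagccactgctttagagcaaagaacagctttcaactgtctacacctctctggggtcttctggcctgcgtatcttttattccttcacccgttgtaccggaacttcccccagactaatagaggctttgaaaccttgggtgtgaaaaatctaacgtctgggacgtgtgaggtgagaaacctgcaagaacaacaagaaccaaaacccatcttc
Prf1 (chr10:61297586-61297835, plus strand): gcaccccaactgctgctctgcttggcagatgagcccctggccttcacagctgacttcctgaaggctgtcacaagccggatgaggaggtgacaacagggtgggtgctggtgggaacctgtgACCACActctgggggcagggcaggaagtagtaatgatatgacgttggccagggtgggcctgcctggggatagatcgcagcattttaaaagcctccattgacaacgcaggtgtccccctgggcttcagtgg

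Gzmb held 2 RUNX matches and 1 AP-1 match in its window, Prf1 held 1 RUNX match and Gzmk held none of the 3 motifs.

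Nkg7 and Ctsw, granule proteins of cytotoxic cells, passed with the replicate block and not in the test without it. Nkg7 was at 337, 495, 1229 and 636 CPM in CD4 TILs and at 1332, 2547, 1966 and 2209 CPM in CD8 TILs (log2 -1.58 ± 0.41, edgeR adjusted p = 0.088, and 0.018 with the block). The CD4 library nearest to the CD8 TILs was replicate 3, and without it Nkg7 was called (edgeR adjusted p = 0.0085). Ctsw had a log2 fold change of -1.47 (edgeR adjusted p = 0.088, and 0.030 with the block). Fasl followed the same pattern (log2 -1.07, edgeR adjusted p = 0.17, and 0.037 with the block).

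Of 23 inhibitory and exhaustion genes tested, 3 were higher in CD8 TILs and 1 in CD4 TILs (median log2 0.19). Eomes, a T-box factor of CD8+ memory and exhausted cells and of NK cells, was at 9.22, 4.19, 2.62 and 2.49 CPM in CD4 TILs and at 62.7, 148, 115 and 71.9 CPM in CD8 TILs (log2 -4.42 ± 0.53, edgeR adjusted p = 0.0027). Cd160, an inhibitory receptor, was at 2.16 to 14.1 CPM against 74.7 to 111 CPM (log2 -3.65 ± 0.53, edgeR adjusted p = 0.0062). Among these genes, Eomes, Cd160 and Cd244a were higher in CD8 TILs and Pdcd1lg2 in CD4 TILs, whereas Pdcd1 (log2 0.28), Lag3 (-0.23) and Havcr2 (-0.80) were not called. The call of Cd244a was lost without CD4 replicate 1 or 2 (edgeR adjusted p = 0.0577 and 0.0575). Pdcd1 was at 678 to 876 CPM in CD4 TILs and at 424, 1234, 434 and 469 CPM in CD8 TILs, so that CD8 replicate 2 alone exceeded the CD4 range. With the block 7 of these 23 genes were called, 3 of them higher in CD4. Bcl2, a survival factor, was at 26.5 to 80.7 CPM in CD4 TILs and 148 to 265 CPM in CD8 TILs (log2 -1.95, edgeR adjusted p = 0.021), and Dapl1 at 2.35 to 14.2 against 35.8 to 84.6 CPM (log2 -2.79, edgeR adjusted p = 0.018). The call of Bcl2 was lost without CD4 replicate 1 or 4 or CD8 replicate 1, 2 or 4 (edgeR adjusted p from 0.0532 to 0.0769), and that of Dapl1 without CD4 replicate 2 or CD8 replicate 4 (0.0731 and 0.0607).

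Of 22 chemokine ligands tested, edgeR called 6 higher in CD8 TILs and none in CD4 TILs (median log2 -1.88), and 8 without CD4 replicate 3. At an unadjusted p under 0.05 there were 14 of the 22, against 1435 of 13902 over all genes tested. DESeq2 called 10 higher in CD8 TILs and 1 in CD4 TILs, against 734 over all genes. Ccl5, a ligand that effector CD8+ T cells secrete, was at 193, 259, 688 and 286 CPM in CD4 TILs and at 1019, 1423, 1597 and 1909 CPM in CD8 TILs (log2 -2.06 ± 0.42, edgeR adjusted p = 0.030). Ccl2, Ccl7, Ccl12 and Ccl9, ligands made largely by myeloid cells, were at 5.94 to 21.2, 5.21 to 18.2, 1.24 to 2.62 and 6.80 to 31.6 CPM in CD4 TILs. In CD8 TILs they were at 48.3 to 128, 50.3 to 140, 10.7 to 36.2 and 51.4 to 131 CPM (log2 -2.88, -3.16, -3.45 and -2.61, edgeR adjusted p from 0.0059 to 0.029). The calls of Ccl5, Ccl9 and Cxcl16 were lost when any of 6 libraries was left out (highest edgeR adjusted p 0.152, 0.113 and 0.154), while Ccl2, Ccl7 and Ccl12 were called in 8 of 8 such tests. With the block 11 of the 22 were called.

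Myeloid markers moved with this group. All 12 macrophage and monocyte markers had a higher mean in CD8 TILs and 7 were called, among them Adgre1, the gene of F4/80 (1.21 to 6.00 CPM in CD4 TILs against 16.96 to 56.9 CPM in CD8 TILs), Csf1r (5.76 to 16.4 against 20.7 to 86.8 CPM) and Lyz2 (57.1 to 306 against 370 to 1276 CPM). Their summed level was 203, 265, 1104 and 202 CPM in CD4 TILs and 1175, 2939, 3029 and 1388 CPM in CD8 TILs, a ratio of 4.81 (exact two-sided permutation test, p = 0.0286, the smallest that 4 against 4 allows, and 0.0714 adjusted over 10 lists). The lowest CD8 TIL library lay just above the highest CD4 TIL library, CD4 replicate 3. Without CD4 replicate 3, as with the block, 12 of the 12 markers were called, and without other single libraries 1 was the lowest count, with Adgre1 called in 6 of 8 such tests, Csf1r in 3 and Lyz2 in 2. For scale, the libraries labeled CD45 of Yap-cKO tumors summed to 16300 to 26360 CPM for the same genes before TMM scaling. These libraries held little T cell RNA, as their T-lineage genes summed to 226 to 296 CPM. The means of that sum were 11240 CPM in CD4 TILs and 9952 CPM in CD8 TILs. A covariate was made from the mean log2 CPM of the 12 markers, in which each marker weighs alike, unlike in the sum. With it 187 genes were called, 117 higher in CD4 and 70 in CD8, of which 78 were among the 346. Cell type accounted for 0.772 of the variance of this covariate. No chemokine ligand was called in that fit, against 2 cytotoxic genes, 11 NK-type receptors, 7 Treg genes and 1 Th2 gene. With this covariate and the replicate block together, a fit chosen after seeing the data, 1 gene was called, Cd8a, and the sorted coreceptor Cd4 itself did not pass (log2 6.80, edgeR adjusted p = 0.068). The part of macrophage RNA in the CD8-higher genes was not tested beyond these fits.

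NK cell and gamma delta T cell markers also summed higher in CD8 TILs. The NK cell markers summed to 117, 206, 334 and 134 CPM in CD4 TILs and 427, 922, 662 and 777 CPM in CD8 TILs, and the gamma delta T cell markers to 44.9 to 75.1 against 104 to 136 CPM (each exact permutation p = 0.0286, adjusted 0.0714). The most abundant NK cell markers were Irf8 and Gzma, and the list also holds Tyrobp and Fcer1g. Their sum is thus not particular to NK cells. All 10 NK cell markers had the higher mean in CD8 TILs. Of the 9 tested, 4 were called by edgeR, 6 with the block and 5 by DESeq2. At an unadjusted p under 0.05 there were 8 of the 9, against 1435 of 13902 over all genes tested. Among the 4 called, Eomes, Klre1 and Gzma are also expressed by CD8+ T cells. Of the 9 gamma delta T cell markers tested, 3 were called higher in CD8 TILs and 1 in CD4 TILs. The defining NK cell marker Ncr1 was not called (log2 -2.05), nor were Klrb1c (8.49 ± 1.29 CPM against 16.8 ± 5.89 CPM) and Trdc, the delta chain constant region (4.49 ± 1.69 against 12.4 ± 8.67 CPM). B cell markers summed higher in CD4 TILs (320 to 465 against 232 to 309 CPM, exact permutation p = 0.0286, adjusted 0.0714), mostly through Ighm, whereas 8 of the 10 markers had the higher mean in CD8 TILs (median log2 -1.15 over the 9 tested) and none was called by edgeR (3 at an unadjusted p under 0.05, and 1 called by DESeq2). Melanoma markers overlapped between the groups, at 289, 1171, 3188 and 1271 CPM in CD4 TILs and 96.3, 784, 3454 and 1734 CPM in CD8 TILs (exact permutation p = 0.97), with replicate 1 lowest and replicate 3 highest in both groups. The summed markers of endothelial cells, fibroblasts, dendritic cells, neutrophils and erythroid cells overlapped between the groups (exact permutation p from 0.0857 to 0.657), and the neutrophil gene Elane had no counts in the 8 libraries. The part of these cells in the differences was not tested.

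**Figure D4:**
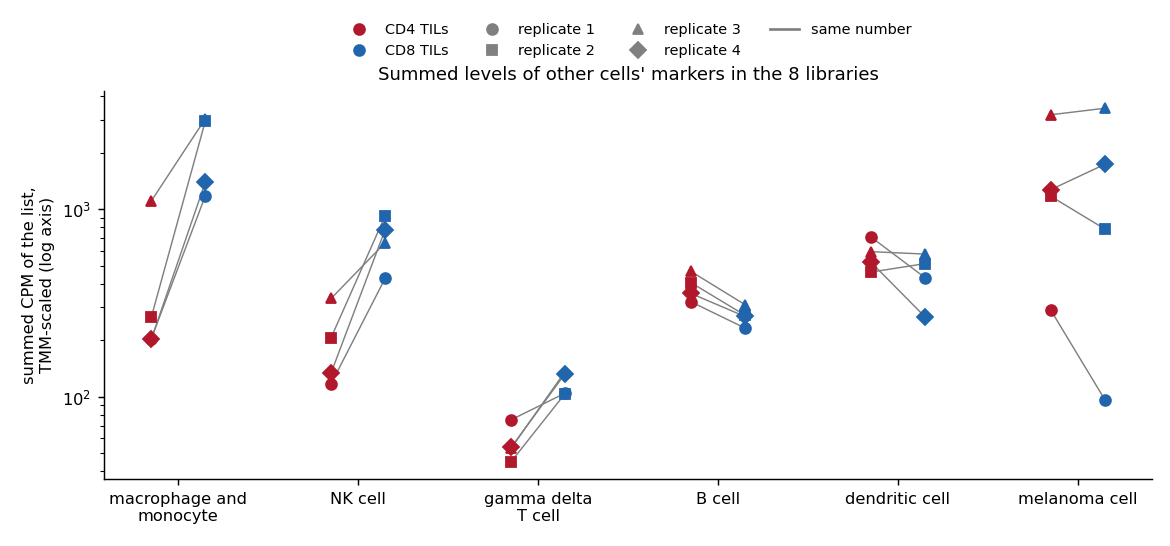
Summed TMM-scaled CPM of marker lists of other cell types in each CD4 and CD8 TIL library of Yap-cKO mice, on a log axis, with lines joining libraries of the same replicate number. The macrophage sums were 202 to 1104 CPM in CD4 TILs and 1175 to 3029 CPM in CD8 TILs, whereas the melanoma sums overlapped, with replicate 3 highest and replicate 1 lowest in both groups.

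Of 23 integrin and residency genes tested, 3 were called. Itgb7 and Itgb3 were higher in CD4 TILs (log2 1.50 and 2.19, edgeR adjusted p = 0.041 and 0.017) and Itgax, which encodes CD11c, in CD8 TILs, at 1.09 to 3.14 against 11.6 to 39.4 CPM (log2 -3.88 ± 0.51, edgeR adjusted p = 0.0038). Itgax is expressed by dendritic cells and by activated CD8+ T cells. Of the 12 dendritic cell markers, the other called gene, Cd83, was higher in CD4 TILs (log2 1.45) and kept its call in 2 of 8 tests that left out a library. Itgb7 lost its call when any of 7 libraries was left out (highest edgeR adjusted p 0.131), and Itgb3 without CD8 replicate 2, 3 or 4 (0.0636 to 0.0719).

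Cell cycle, interferon and antigen presentation genes gave no calls. None of 28 cell cycle genes, 23 interferon-stimulated genes and 16 antigen presentation genes was called by edgeR, with or without the block (median log2 -0.02, 0.08 and 0.23). At an unadjusted p under 0.05 there were 0, 1 and 0 genes, against 1435 of 13902 over all genes tested, and DESeq2 called 0 in each. Of 20 glycolysis and hypoxia genes, Egln3, a HIF-induced prolyl hydroxylase, was higher in CD4 TILs (log2 2.31, edgeR adjusted p = 0.032), and it lost the call without any of 6 libraries (highest edgeR adjusted p 0.120) and under the T-lineage scaling. None of 20 immediate early genes of recent activation was called by edgeR (5 at an unadjusted p under 0.05, and 1 called by DESeq2), and with the block 4 of 20 were higher in CD4 and 1 in CD8, the former including Junb (log2 1.18, edgeR adjusted p = 0.014) and Nr4a1 (1.45, edgeR adjusted p = 0.0067). Nr4a1 was at 2313, 847, 926 and 364 CPM in CD4 TILs and 751, 314, 346 and 145 CPM in CD8 TILs, so that in each of the 4 numbers the CD4 library was the higher and the numbers themselves differed widely.

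Further T cell lists gave calls for genes already described or for close copies. Of 16 TGF-beta genes tested, Lrrc32 was called, and of 12 follicular helper genes Il4 and Maf were higher in CD4 TILs and Cxcr5 in CD8 TILs. Of 18 naive and stem-like genes, Bcl2, Dapl1 and Ly6c2 were higher in CD8 TILs and Ly6c1 in CD4 TILs (log2 3.56), the last 2 being near-identical copies with uncertain separate values.

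Of 18 Hippo pathway genes and Yap/TEAD targets tested, Axl, a receptor tyrosine kinase, was called (69.6 to 111 CPM in CD4 TILs, 15.5 to 31.8 CPM in CD8 TILs, log2 1.96 ± 0.32, edgeR adjusted p = 0.010). None of the other 17 was called, Yap1 itself at log2 -0.49. At an unadjusted p under 0.05 there were 2 of the 18, against 1435 of 13902 over all genes tested. DESeq2 called 1 of the 18, against 734 over all genes.

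The genes with the largest fold changes included some outside these lists. By fold among called genes, the 10 most CD4-biased were Il5, Cd4, Hc, Ccn4, Il4, Il13, Foxp3, Cyp11a1, Lrrc32 and Fgf16. Hc, which encodes complement C5, was at 9.48, 8.33, 1.66 and 6.55 CPM in CD4 TILs and had 3 counts in CD8 TILs, a ratio of 139 with a 95% counting interval from 47.4 to 679 (edgeR adjusted p = 0.0043). Cyp11a1, the enzyme that starts steroid synthesis from cholesterol, was at 109, 8.86, 9.01 and 16.6 CPM against 0.259 to 0.834 CPM (log2 5.96, edgeR adjusted p = 0.012), and its call was lost without CD8 replicate 4 (0.0520). Ccn4, a matricellular protein of Wnt signaling, was at 10.5 to 56.5 CPM against 0.0631 to 0.875 CPM (log2 6.31, edgeR adjusted p = 0.0038). CD4 replicate 1 was again the highest library for Il5, Hc, Cyp11a1 and Ccn4.

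The 10 most CD8-biased were Cd8a, Lyve1, Slc6a19, Smyd1, Cd8b1, Cd163, Klra7, Bend4, Syde2 and Adgrg5. Lyve1 and Cd163, receptors of lymphatic endothelium or tissue macrophages, were at 0.970, 29.0, 7.34 and 14.3 CPM and at 0.906, 24.9, 8.12 and 11.7 CPM in CD8 TILs, and ranked these libraries alike. Lyve1 had 1 count in all CD4 TILs (ratio 822, 95% counting interval 147 to 32513). Slc6a19, a transporter of neutral amino acids, was at 12.9 to 21.1 CPM against 0 to 0.546 CPM (log2 -6.19, edgeR adjusted p = 0.0027). Smyd1 lies next to Cd8b1 on the opposite strand (chr6:71213940-71322233 and chr6:71322788-71337494), and was at 5.37 to 9.72 CPM in CD8 TILs against 0 to 0.236 CPM in CD4 TILs. Bend4 was at 108, 42.1, 30.5 and 50.5 CPM against 0.958 to 2.16 CPM (log2 -5.37, edgeR adjusted p = 0.0011), and Adgrg5 at 60.9 to 195 against 2.13 to 6.52 CPM (log2 -4.59, edgeR adjusted p = 0.0023). The call of Cd163 was lost without CD4 replicate 1 or 2 (edgeR adjusted p = 0.0841 and 0.0893), and that of Syde2, which rested on CD8 replicate 1 (36.0 against 1.45 to 5.11 CPM in the others), whenever a CD4 TIL library was left out (0.0586 to 0.0925).

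In WT TILs the same comparison called 17 of 14266 genes (0.119%), 7 higher in CD4 (0.0491%) and 10 in CD8 (0.0701%), and 103 with the replicate block (0.722%). Whether the cell type difference depended on genotype was tested over the 16 TIL libraries. No gene was called (0 of 15198 by edgeR, with 525 at an unadjusted p under 0.05, and 43 by DESeq2) in the test without a block. With libraries blocked by genotype and number, 4 genes were called (0.0263%), namely Ccl2, Ccl12, Lyz2 and Bend4, chosen here after their values were seen (interaction log2 -3.08, -3.84, -2.56 and -2.97, each edgeR adjusted p = 0.039). Their CD4 to CD8 log2 fold changes were -2.88, -3.45, -2.61 and -5.37 in Yap-cKO TILs and 0.22, 0.78, -0.06 and -2.31 in WT TILs. Ccl2, Ccl12 and Lyz2 are genes of myeloid cells, and the 12 macrophage markers had a median log2 fold change of 0.04 in WT TILs, with none called. Without Yap-cKO CD4 replicate 3 the interaction without the block called 6 genes. Treg and Th2 lists had medians of 1.56 and 2.39 in WT TILs, with 2 and 1 genes called.

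In Yap-cKO TDLNs 323 of 12954 genes were called (2.49%), 155 higher in CD4 (1.2%) and 168 in CD8 (1.3%). A test over the 16 Yap-cKO libraries asked where the cell type difference itself depended on tissue, and called 29 of 14802 genes (0.196%, and 0.466% with libraries blocked by tissue and number), with 14 more CD4-biased in the tumor and 15 less so. Foxp3 and Cd4 were not among them (interaction log2 0.31 and -0.44), since Foxp3 was CD4-biased in TDLNs too (log2 5.67), at 44.3 to 155 CPM in CD4 and 1.06 to 3.28 CPM in CD8 libraries.

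Among the genes whose bias was larger in TDLNs was Plac8, at 76.5 to 145 CPM in CD4 TILs and 100 to 166 CPM in CD8 TILs, but at 0.995 to 5.08 against 48.2 to 82.4 CPM in TDLNs (interaction log2 4.44 ± 0.57, edgeR adjusted p = 0.0073). Sytl3, a regulator of granule exocytosis, showed the same, with log2 -0.21 in TILs and -3.48 in TDLNs (interaction edgeR adjusted p = 0.011). Nkg7, named after its values were seen, was at 5.91 to 32.3 CPM in CD4 and 563 to 982 CPM in CD8 cells of TDLNs, on a scale set separately from that of the TILs (interaction log2 4.16 ± 0.71, edgeR adjusted p = 0.015). Ly6c2, with the same uncertainty as above, had log2 fold changes of -2.59 in TILs and -6.23 in TDLNs. Matk, a kinase that restrains Src family kinases, was CD4-biased in tumors alone (68.5 to 118 against 11.2 to 18.8 CPM in TILs, 20.4 to 51.1 against 28.5 to 49.9 CPM in TDLNs, interaction log2 2.88 ± 0.48, edgeR adjusted p = 0.013). Arrdc4 had a positive fold change in TILs (log2 1.23) that did not pass, and a negative one in TDLNs (-2.03) that did.

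In the other direction stood F13a1, Cd163 and Lgmn, genes of macrophages, with log2 fold changes of -3.30, -5.68 and -1.56 in TILs and 1.43, 2.12 and 2.49 in TDLNs (interaction edgeR adjusted p = 0.0090, 0.013 and 0.013). Pid1 and Cers6 went the same way (interaction log2 -3.70 and -3.35). The 12 macrophage markers had a median log2 fold change of -2.60 in TILs. In TDLNs 5 of them were tested and none was called. Their median there was -0.67, without the positive sign of F13a1, Cd163 and Lgmn. Fasl, named after its values were seen, was at 49.0 to 137 CPM in CD4 and 151 to 233 CPM in CD8 TILs, but at 32.6 to 85.0 CPM in CD4 and 10.4 to 26.5 CPM in CD8 cells of TDLNs (interaction log2 -2.95 ± 0.50, edgeR adjusted p = 0.013). Itgae, the integrin chain CD103, was not called in TILs, where the groups overlapped, and was CD8-biased in TDLNs, at 43.4 to 163 against 21.9 to 76.7 CPM in TILs and 24.6 to 79.6 against 226 to 417 CPM in TDLNs (interaction log2 3.58 ± 0.69, edgeR adjusted p = 0.036).

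**Figure D5:**
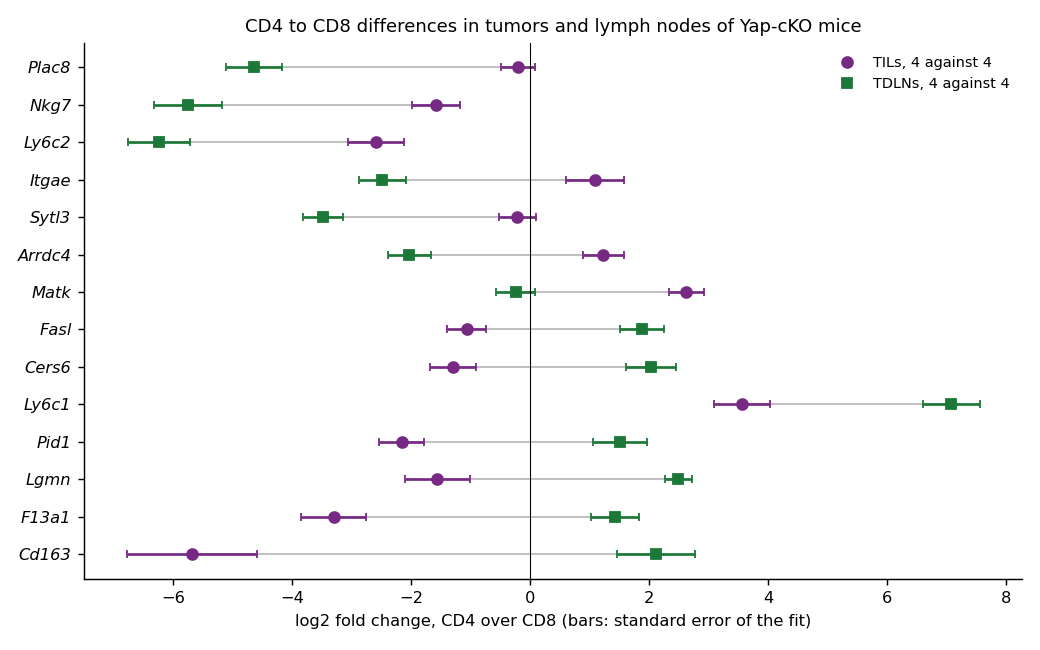
Log2 fold change of CD4 over CD8 in TILs (circles) and TDLNs (squares) of Yap-cKO mice for 14 genes whose difference depended on tissue, with bars for the standard error of the fit (4 against 4 libraries each). Plac8 went from -4.64 in TDLNs to -0.20 in TILs, and Cd163 from 2.12 to -5.68.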

How the data were processed

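Total RNA of sorted T cells was sequenced after full-length amplification with the SMART-Seq v4 kit. The authors checked and trimmed reads (FastQC, Trimmomatic) and deposited 1 Salmon 0.9.1 table per library, quantified against mm10, with estimated counts and TPM for each transcript. The order of these steps and the annotation release are not given in the sources used here. The deposited estimated counts were summed to genes with GENCODE M21 (111787 of 112092 transcripts matched, 34932 genes) and rounded. Unmatched counts made up 0.0749 to 0.134% of a library. The deposited TPM values are not printed. Of the 48 libraries 28 were used, and the other 20 hold populations outside these comparisons. Gene totals ranged from 12656302 to 21915836, and intervals and floors cover counting error only.

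Genes that reached 10 counts in 4 or more libraries were tested with edgeR 4.0.16 (R 4.3.3), TMM factors and the quasi-likelihood F test, within each set of 8 libraries, and with interactions over 16. TIL and TDLN levels were TMM-scaled separately. DESeq2 1.42.0, with which the study tested its genes, was an alternative, as were other scalings, filters, covariates, a replicate block and each library left out. The block within tissue and the block with the macrophage covariate were chosen after seeing the data. On simulated counts of 13579 genes for the CD4 to CD8 comparison of Yap-cKO TILs, edgeR recovered 49 of 100 genes changed by 2 on the log2 scale and 87 of 100 changed by 3, with 1 false call.

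The labels number replicates but do not say that a number marks 1 tumor, and the study sorted CD4+ and CD8+ TILs from each tumor. Deviations from the group means correlated within a number at 0.576, 0.157, 0.549 and 0.421 in Yap-cKO TILs and at 0.65, 0.168, 0.508 and 0.152 in WT TILs, all above the limit of 0.1, so that these numbers were taken as pairs. In WT TILs number 4 correlated more with another number (0.17) than within its own. For number 2 the highest correlation with another number was 0.147 in WT and 0.0955 in Yap-cKO TILs. The pairing is thus less certain for these numbers, and with it the blocked fits. The labels do not say that the libraries of a group came from separate mice, and p-values measure the spread between these libraries. No 2 libraries of a group agreed within sampling noise (12 pairs).

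The comparison and the gene lists were chosen with earlier results of these data known. Genes were named by rule: the coreceptors, Foxp3, Gzmb and Yap1, in each list up to 6 called genes in each direction and up to 3 abundant genes not called, any granzyme or Treg gene, the 10 called genes with the largest fold in each direction without overlap and with a mean of at least 5 CPM in the higher group (predicted genes, Rik clones and pseudogenes left out), up to 5 genes in each direction of an interaction, and the 2 most abundant markers of other cells. Adgre1, Csf1r, Havcr2, Itgae, Klrb1c, Klrk1, Lag3, Ncr1, Ptprc, Runx3, Tbx21 and Trdc fall outside it and were named after their values were seen. Fcer1g, Fcgr3 and Tyrobp are named as list members only. Results for some genes are not reported here. Promoters came from RefSeq (6 of 6 genes matched).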

Additional observations from a re-analysis of the deposited data

Results flagged for a closer look

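Among 252 groups of 4 libraries tested for a library far from the rest, 29 exceeded Dixon's 95% critical value for the gap over the range. That value is set for independent groups of normally distributed values. CPM of many genes in the same libraries need not meet this, so no share due to chance can be given. At Il5 in CD8 TILs and Lyve1 in CD4 TILs, 1 count against 0 in the others fixed the statistic at 1.000. CD4 replicate 3 held the deviating value in 7 of the 29, CD8 replicate 1 in 6, CD4 replicate 1 in 5 and CD8 replicate 2 in 4. The part of RNA quality in the values of CD4 replicate 3 was not tested.

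In CD4 replicate 3 the low values were Maf (44.8 CPM) and Klrk1 (6.20 CPM), and the high ones were Lag3 (42.1 CPM), Tbx21 (282 CPM), and the summed T-lineage genes (15250 CPM), fibroblast markers (78.2 CPM) and macrophage markers (1104 CPM). CD4 replicate 1 was the highest for Il5 (380 CPM), Il10 (69.9 CPM), Ccr4 (162 CPM), Egln3 (105.0 CPM) and Cyp11a1 (109 CPM). CD4 replicate 2 was the highest for Arrdc4 (48.6 CPM) and held the single count of Lyve1 (0.0590 CPM).

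Among CD8 TILs, replicate 1 was the highest for Cd4 (6.40 CPM), Gata3 (86.3 CPM), Il4ra (716 CPM), Itgb3 (80.3 CPM), Syde2 (36.0 CPM) and Il4 (0.129 CPM, 2 counts). CD8 replicate 2 was the highest for Cd8a (1084 CPM), Pdcd1 (1234 CPM), Tnfrsf9 (1075 CPM) and Cd244a (96.2 CPM). CD8 replicate 3 was the highest for Cxcr5 (37.2 CPM), Il13 (0.167 CPM) and Il5 (0.0556 CPM, 1 count), and CD8 replicate 4 for Gzma (383 CPM) and Il10 (14.7 CPM).

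The CD4 to CD8 difference depended on tissue, by the interaction test over TILs and TDLNs, for 14 genes the text names. The log2 difference in TILs exceeded that in TDLNs for Plac8 (4.44), Nkg7 (4.16), Ly6c2 (3.65), Itgae (3.58), Sytl3 (3.28), Arrdc4 (3.25) and Matk (2.88). It was lower in TILs for Cd163 (-7.82), F13a1 (-4.72), Lgmn (-4.04), Pid1 (-3.70), Ly6c1 (-3.51), Cers6 (-3.35) and Fasl (-2.95).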

How the results depend on the processing

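Of 115 genes named as results, 84 were called. DESeq2 lost 1 of these calls and gained 6, RLE factors lost 2, no count filter 2, length offsets 2, T-lineage scaling 10, and the block lost 1 and gained 10. Leaving out each library in turn ended 36 at least once, some because a gene then missed 10 counts in 4 libraries. No called gene changed sign in these fits. The macrophage covariate ended 56 of the 84 and turned the sign of 1 more. Together with the block it ended 81 and turned the sign of 2 more. The causes were not tested.

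Called genes numbered 346 in Yap-cKO TILs, 17 in WT TILs and 323 in TDLNs, and 0 and 29 in the genotype and tissue interactions. DESeq2 gave 734, 149, 575, 43 and 148. Without the filter WT TILs gave 63, TDLNs 491 and the tissue interaction 59. The replicate block gave 612 in Yap-cKO and 103 in WT TILs, 4 in the genotype interaction (blocked by genotype and number) and 69 in the tissue interaction (by tissue and number). TDLN numbers did not all correlate (0.581, 0.381, 0.326 and -0.03), and their block gave 427 calls. The macrophage covariate gave 187, with the block 1 (Cd8a, and 0 in every other list), and the melanoma, endothelial and fibroblast covariate 536. With 1 library left out the counts ran from 142 to 456, 6 to 33, 164 to 318, 0 to 6 and 19 to 50.

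List counts moved as follows. With DESeq2, Th1 4, follicular 5, costimulation 11, TCR signaling 4, chemokine ligands 11, integrins 5 and immediate early 1. With T-lineage scaling, Th17 1 and glycolysis 0. With the macrophage covariate, cytotoxic 2, Treg 7, Th1 4, Th2 1, follicular 1, integrins 1, and Th17, inhibitory, chemokine ligand, chemokine receptor and common gamma chain genes 0. With the melanoma, endothelial and fibroblast covariate, cytotoxic 8, Th1 4, follicular 5, TCR signaling 2, integrins 7, immediate early 1, Hippo 2 and interferon-stimulated 1. Without the filter, Th1 3 and TCR signaling 2. With the replicate block, cytotoxic 8, Th1 3, inhibitory 7, TCR signaling 4, chemokine ligands 11, TGF-beta 2, immediate early 5 and glycolysis 2. With 1 library left out, Treg counts stayed within 1.5 times, Th2 ran from 5 to 11, NK-type receptors 6 to 12, cytotoxic 3 to 7, chemokine ligands 3 to 8, chemokine receptors 1 to 6, lineage 3 to 6, Th17 1 to 4, naive 1 to 4, common gamma chain 2 to 4, Th1 1 to 3, integrins 1 to 3, TCR signaling 0 to 3, glycolysis 0 to 2, follicular and TGF-beta 1 to 2 and immediate early 0 to 1.

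Genes that changed sign were Tbx21 (-0.27 with T-lineage scaling, -0.15 with the melanoma, endothelial and fibroblast covariate, -0.0776 with the block, -0.0131 with length offsets), Stat6 (-0.17 with T-lineage scaling) and Il4ra (0.0445 with that covariate). With the macrophage covariate they were Yap1 (0.89), Icos (-1.85), Lgmn (1.19), Itgae (-0.32), Csf1r (0.21) and Lag3 (3.15). With this and the block they were Nkg7 (0.0925), Icos (-0.69), Il5 (-9.96), Ccr3 (-0.47), Plac8 (0.44), Lgmn (0.36), Itgae (-0.19), Ifng (0.10), Lag3 (3.99) and Stat6 (-0.26). With 1 library left out, log2 values ran from -0.80 to 0.0089 for Gzmb, -1.13 to 0.0409 for Havcr2, -0.78 to 0.39 for Il4ra, -0.89 to 0.62 for Lag3, -0.0933 to 0.16 for Stat6 and -0.34 to 0.21 for Tbx21.

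Ratios of summed markers, CD8 over CD4, with 1 library left out ran from 4.07 to 9.56 for macrophages, 3.10 to 4.57 for NK cells, 0.661 to 0.750 for B cells, 0.810 to 0.948 for T-lineage genes, 0.580 to 0.812 for endothelium, 0.401 to 1.02 for fibroblasts, 0.589 to 1.67 for melanoma and 0.835 to 1.64 for erythroid cells. Without TMM, T-lineage genes were at 0.885 and B cells at 0.727.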
